A study of Homo sapiens with 9 samples.

Results

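Amino acid transporter genes were examined in the human breast carcinoma line MDA-MB-231, an established line without hormone receptors. Members were all genes with a protein-coding transcript whose symbol places them in the solute carrier (SLC) families 1, 3, 6, 7, 36, 38 or 43, and 60 of the 58219 genes in the files met this rule. Of these, 59 carry the name of a carrier or of its partner chain, and SLC7A6OS is named only for lying on the strand opposite SLC7A6. The rule uses names and no measured values, but these families were picked for description with earlier results of these data known. The study altered APT1, the product of LYPLA1, an enzyme that takes palmitate off membrane proteins. shAPT1 cells carried a lentiviral short hairpin RNA against APT1 and were selected with puromycin. APT1wt cells carried a lentivirus that overexpresses wild-type APT1. Control cells carried a scrambled hairpin delivered by lentivirus. Each group had 3 libraries, made from total RNA of cells grown in DMEM with serum. The only control thus carried a hairpin, and no group with an empty overexpression vector was analysed here. Nothing in the labels states whether a group's libraries were grown separately or from separate clones, so p-values cover only library-to-library spread, possibly of technical origin.

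Cells take up amino acids through carriers that differ in substrate and in what drives them. Sodium-driven carriers such as SNAT2 (SLC38A2), the taurine carrier SLC6A6 and the glutamate carrier EAAT1 (SLC1A3) concentrate their substrates in the cell. Exchangers such as LAT1 (SLC7A5), ASCT2 (SLC1A5) and the cystine-glutamate exchanger xCT (SLC7A11) swap an internal amino acid for an external one, and many SLC7 light chains reach the membrane only when bound to the heavy chain 4F2hc (SLC3A2). Leucine and arginine brought in by such carriers feed the mTORC1 growth pathway, whose lysosomal arginine sensor is SLC38A9. When amino acids run short, the transcription factor ATF4 is known to raise a set of transporter genes, among them SLC7A11, SLC7A5, SLC7A1, SLC1A4, SLC3A2 and SLC38A2. Many breast cancer lines depend on glutamine, cystine and leucine uptake for growth.

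Shown are the 250 bases before a RefSeq transcript start of SLC7A1 and of SLC1A4. These windows were chosen because both genes were higher in shAPT1 cells and the windows differ in a motif searched for. They are plus-sense for each gene, 5′ to 3′, from RefSeq on GRCh38.p14. The SLC7A1 window is chr13:29595689-29595938 on the minus strand, and capitals mark a match to TGACNNNGC, the core of the antioxidant response element bound by NRF2, which begins 85 bases before the start.
SLC7A1: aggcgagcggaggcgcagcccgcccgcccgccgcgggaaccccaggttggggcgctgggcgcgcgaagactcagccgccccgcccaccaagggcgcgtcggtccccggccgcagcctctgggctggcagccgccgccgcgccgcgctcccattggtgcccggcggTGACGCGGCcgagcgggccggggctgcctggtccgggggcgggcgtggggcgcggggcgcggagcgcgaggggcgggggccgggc
The SLC1A4 window is chr2:64989149-64989398 on the plus strand and held none of the motifs searched. It ends within 2 bases of the start of the 4561-base coding transcript and lies inside the annotated gene, which begins at 64988477.
SLC1A4: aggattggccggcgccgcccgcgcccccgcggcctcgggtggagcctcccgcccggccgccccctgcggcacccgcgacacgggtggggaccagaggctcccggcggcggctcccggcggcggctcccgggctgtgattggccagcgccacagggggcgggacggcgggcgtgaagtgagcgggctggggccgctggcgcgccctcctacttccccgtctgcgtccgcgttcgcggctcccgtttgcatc

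Short motifs were searched on both strands of the 250 bases before each start, in 35116 such windows, of which 67 belonged to 45 of the 60 members. TGACNNNGC was found in 10.9% of all windows and in 6 of the 67 member windows, from SLC1A3, SLC1A5, SLC3A2, SLC7A1, SLC7A6 and SLC7A7. TGATGNAA, the composite site that ATF4 binds with C/EBP factors, was in 3.14% of windows and in 2 of the 67 member windows, from SLC1A3 and SLC1A5. CACGTG, the E-box bound by MYC and related factors, was in 6.34% of windows and in 9 of the 67 member windows, from 9 members with SLC7A5 among them. These are matches of letters in short windows and not sites known to be bound.

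The libraries held 12381931 to 18667383 estimated reads, and members held 0.313% to 0.359% of them. LYPLA1 stood at 35.1 ± 4.1 TPM in shAPT1, 170 ± 1.0 TPM in APT1wt and 86.8 ± 6.1 TPM in control cells (SD, n = 3 each), lowest in shAPT1 and highest in APT1wt. TPM is a length-corrected share of a library's transcripts and allows levels to be set side by side between genes. The line markers VIM and CD44 together reached 2533 to 3291 TPM in every library, ESR1 and PGR were at most 0.219 TPM, and CDH1 lay between 0.383 and 2.76 TPM. Of 7 leukocyte markers, PTPRC and CD3E were at or near 0 in every library, and the summed level was 280 to 322 TPM in shAPT1, 297 to 364 TPM in APT1wt and 501 to 643 TPM in control, nearly all from CD74, HLA-DRA and LCP1. CD74 and HLA-DRA were lower in both altered lines, whereas LCP1 was higher, at 41.8 TPM in shAPT1, 61.9 TPM in APT1wt and 10.1 TPM in control on group means. Of 6 endothelial markers, CDH5 and VWF were at or near 0 and ESAM supplied most of a sum of 59.3 to 77.4 TPM in shAPT1, 102 to 106 TPM in APT1wt and 41.3 to 50.7 TPM in control. Of 6 fibroblast markers, DCN and LUM were at most 0.424 TPM, and the sum was 13.0 to 22.4 TPM in shAPT1, 20.1 to 24.7 TPM in APT1wt and 17.6 to 20.7 TPM in control. The sum holds opposite changes, as in shAPT1 COL1A1, COL1A2 and PDGFRB were higher by 0.51, 1.69 and 1.39 on the log2 scale and FBLN1 was lower by -1.14. Whether the groups' differences in these sums touch the results on transporters was not tested. In bulk samples such as these, fewer cells of a kind and less RNA per cell cannot be told apart.

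A few carriers supplied most of the transporter mRNA. The 8 most abundant members, SLC43A3, SLC3A2, SLC7A5, SLC1A5, SLC7A1, SLC38A2, SLC38A1 and SLC7A6, held 83.7% of the summed TPM of all members in shAPT1, 83.8% in APT1wt and 83.3% in control cells. SLC43A3, whose product is known as a carrier of purine nucleobases and not of amino acids, ranked first in each group with means of 321 ± 12, 365 ± 19 and 356 ± 41 TPM in shAPT1, APT1wt and control. SLC3A2, SLC7A5 and SLC1A5 followed at 158 to 222 TPM on group means. SLC7A5 was above SLC3A2 in shAPT1 and APT1wt and below it in control, by less than the SD of either gene in shAPT1 and in APT1wt. Means of at least 10 TPM were found for 19, 19 and 18 members in shAPT1, APT1wt and control, and means under 1 TPM for 35, 34 and 35.

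**Figure D1:**
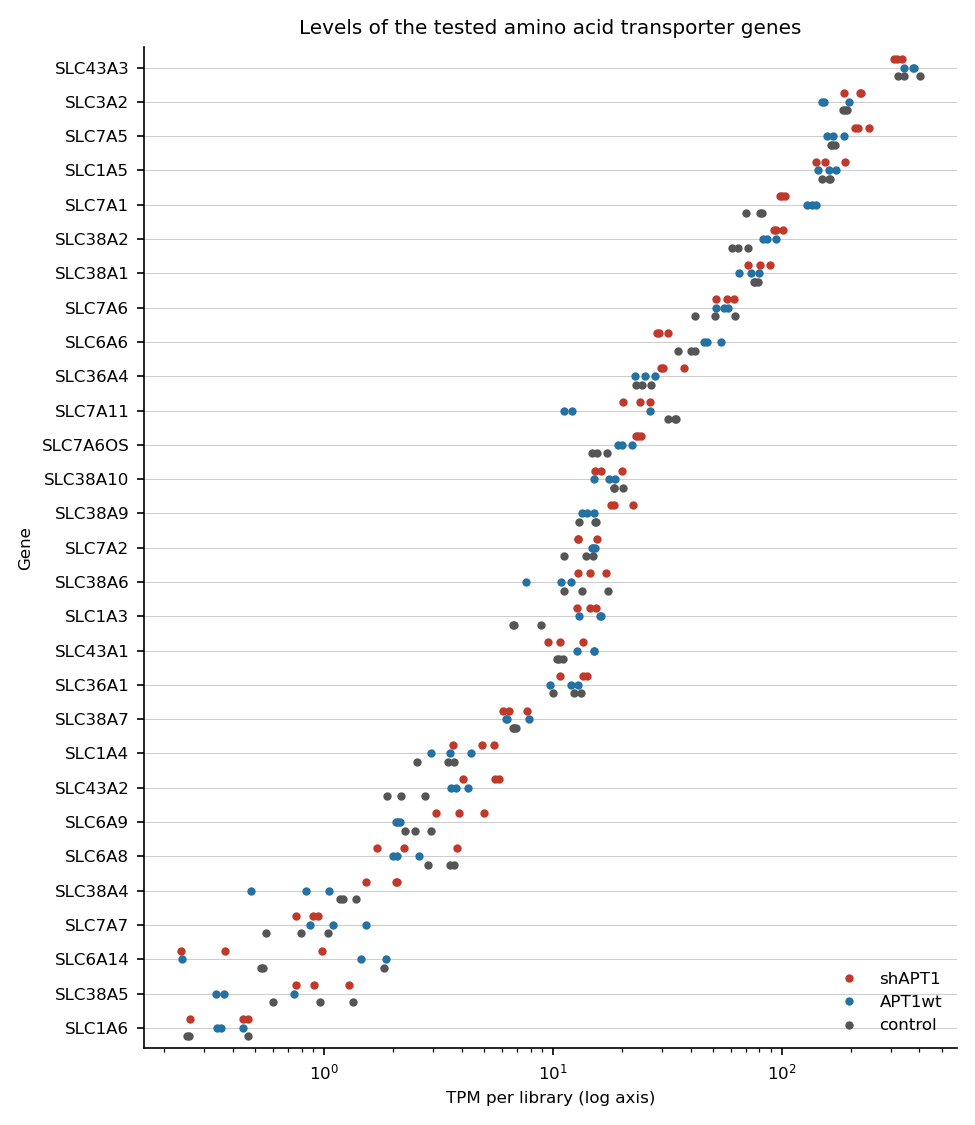
TPM of each of the 29 tested members in each of the 9 libraries, on a log axis, ordered by the mean over all libraries; red is shAPT1, blue APT1wt and grey control. Many rows overlap between groups, while SLC7A1, SLC6A6 and SLC1A3 show separate clouds for at least 1 group.

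The other 31 members did not pass the filter on low counts and were not tested. None of them had more than 64 reads over all 9 libraries or a mean above 0.793 TPM. The largest share came from family 6, the sodium- and chloride-driven carriers of neurotransmitters and amino acids, of which 15 of 19 were not tested. Among these were the carriers of noradrenaline, dopamine and serotonin, which serve neurons. No read was assigned in any library to SLC38A8, SLC6A18, SLC6A19, SLC6A2, SLC6A5, SLC7A10, SLC7A13 or SLC7A3. A count of 0 allows up to 3 reads in a library, counting error only. SLC3A1, the heavy chain of the renal cystine carrier, had 1 to 7 reads per library and was not tested. The 29 members that were tested are those with enough reads, and the counts that follow are over these.

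In shAPT1 against control, 10 of the 29 tested members were higher, 2 were lower and 17 did not pass an adjusted p of 0.05 in edgeR's quasi-likelihood test over 15233 genes. Over all tested genes 24.4% passed, 12.8% as higher and 11.6% as lower, and among the tested members the share was 41.4%. The median log2 fold change of the members was 0.12, against -0.0039 for all tested genes. With a stricter filter on low counts, which kept 26 members, their median was -0.0061, against -0.0027 for all genes tested. The calls stayed at 10 higher and 2 lower there, so the shift in the median rested on members with few reads. In the other alternatives the members' median ran from 0 without a filter to 0.19 without APT1wt replicate 2. The higher members were SLC1A3, SLC1A4, SLC6A9, SLC43A2, SLC7A6OS, SLC38A2, SLC36A4, SLC38A9, SLC7A5 and SLC7A1, and the lower ones were SLC6A6 and SLC43A3. With an offset for transcript length, which corrects for shifts between short and long transcripts, the counts were 6 higher and 1 lower. Over all tested genes that offset gave 1196 higher and 1111 lower, against 1951 and 1768 without it.

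In APT1wt against control, 7 members were higher, 2 were lower and 20 did not pass, while 23.4% of all tested genes passed, 11.8% as higher and 11.6% as lower. The members' share was 31.0% and their median log2 fold change 0.01. SLC1A3, SLC7A1, SLC43A2, SLC43A1, SLC7A6OS, SLC38A2 and SLC6A6 were higher, and SLC7A11 and SLC6A8 were lower. Both comparisons use the same control libraries, so values below are set side by side and nothing is read from their likeness. In shAPT1 against APT1wt, which uses no control library, 7 members were higher in shAPT1, 4 were lower and 18 did not pass, against 25.1% of all tested genes passing, 12.7% as higher and 12.4% as lower. That split was 1941 genes higher and 1888 lower, and 2628 higher and 1327 lower where libraries were scaled by their totals alone, which left the members at 8 higher and 4 lower. With a length and GC correction the split was 1923 higher and 2940 lower. In APT1wt against control it was 1796 higher and 1772 lower, and 1487 higher and 2057 lower on library totals alone. The members higher in shAPT1 were SLC38A5, SLC38A4, SLC6A9, SLC1A4, SLC38A9, SLC36A4 and SLC7A5, and the lower ones were SLC6A6, SLC7A1, SLC43A1 and SLC43A3. In reads scaled by library size, the groups did not overlap for 13 of the 29 members in each comparison. Of all 15233 tested genes this held for 5773 in shAPT1 and 6742 in APT1wt against control, and for 5973 in the direct comparison. Groups without overlap, given below in TPM unless stated, are thus common and no separate support.

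**Figure D2:**
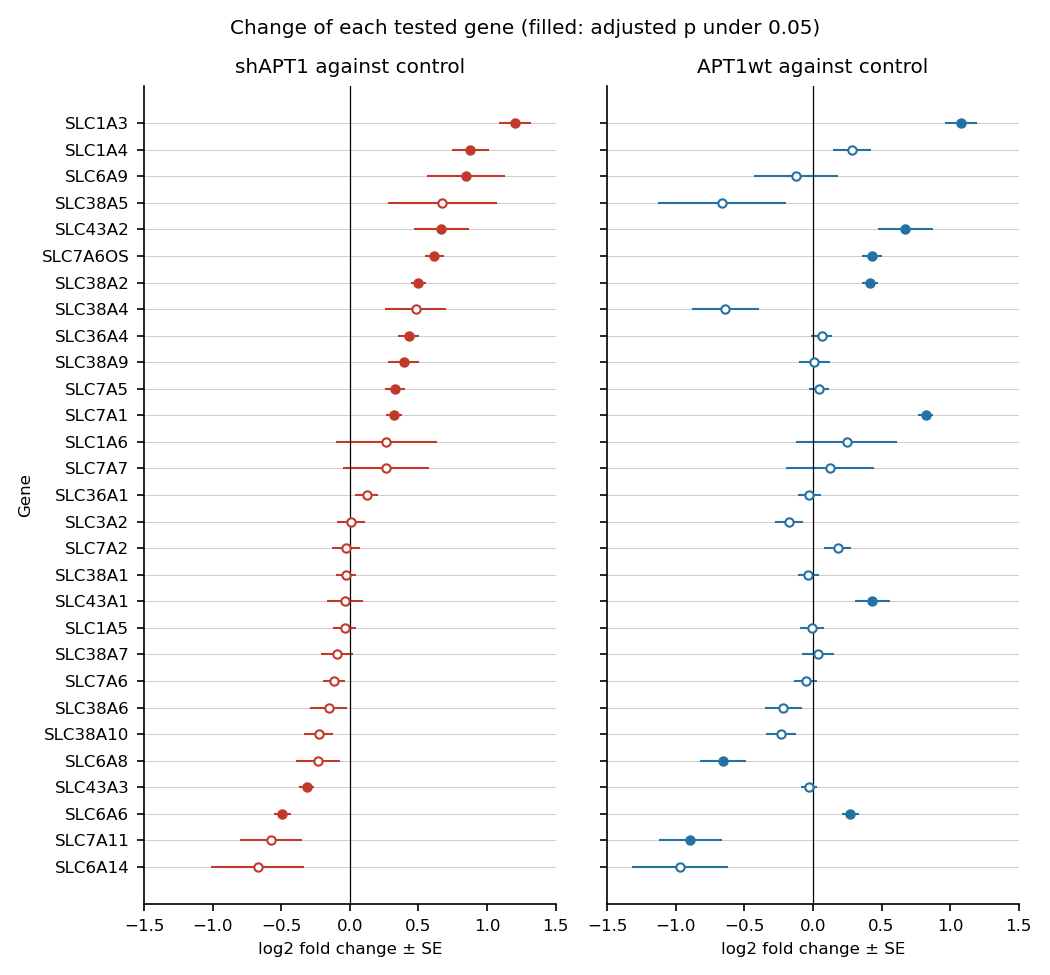
Log2 fold change with its standard error of each of the 29 tested members in shAPT1 against control (left) and APT1wt against control (right), in the order of the shAPT1 values; filled points passed an adjusted p of 0.05. SLC1A3 was highest in both panels, at 1.20 and 1.08, and SLC6A6 lay at -0.49 in shAPT1 and 0.27 in APT1wt.

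Heavy and light chains were examined first. SLC3A2 (chromosome 11, 62856102 to 62888875, plus strand, GRCh38) encodes the heavy chain 4F2hc and was at 221, 188 and 221 TPM in shAPT1, 198, 153 and 149 TPM in APT1wt and 193, 189 and 185 TPM in control. APT1wt replicates 2 and 3 were the lowest of the 9 libraries and the first APT1wt library lay above every control library. The log2 fold change was 0.01 ± 0.10 in shAPT1 (95% interval -0.19 to 0.21) and -0.17 ± 0.10 in APT1wt (95% interval -0.37 to 0.03), and neither passed. Without APT1wt replicate 1 SLC3A2 passed at -0.31 in APT1wt (adjusted p = 0.031) and at 0.32 in shAPT1 against APT1wt (adjusted p = 0.024).

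SLC7A5 encodes LAT1, which imports leucine and other large neutral amino acids in exchange for glutamine. It stood at 216, 210 and 241 TPM in shAPT1, 187, 168 and 158 TPM in APT1wt and 172, 166 and 165 TPM in control. Every shAPT1 library was above every other library, while APT1wt and control overlapped. SLC7A5 was higher in shAPT1 by 0.33 ± 0.07 (adjusted p = 0.0047) against control and by 0.28 ± 0.07 (adjusted p = 0.011) against APT1wt. The call against APT1wt was lost without APT1wt replicate 2 or 3 (adjusted p of up to 0.067). In APT1wt against control the value was 0.04 ± 0.07 (95% interval -0.10 to 0.19). Most of its TPM came from the 4537-base coding transcript, at 198, 162 and 160 TPM on group means of shAPT1, APT1wt and control, and a 3983-base coding transcript stood at 23.1, 9.19 and 6.41 TPM.

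SLC7A11 (chromosome 4, 138164097 to 138242349, minus strand) encodes xCT, which imports cystine for glutathione synthesis. It was at 24.2, 20.2 and 26.7 TPM in shAPT1, 26.6, 11.2 and 12.1 TPM in APT1wt and 34.3, 31.7 and 34.7 TPM in control. All 6 libraries of the altered lines lay below all control libraries, and the first APT1wt library lay far above the other 2. In APT1wt SLC7A11 was lower by a log2 fold change of -0.89 ± 0.23 (adjusted p = 0.011). Without APT1wt replicate 2 or 3 the value was -0.70 or -0.69 and the call was lost (adjusted p = 0.055 and 0.058), and without replicate 1 it was -1.41. Its 100 nearest tested genes had a median of -0.25 in APT1wt, with 2 higher and 38 lower, and with the neighbours' median removed the value was -0.66 and the call was lost (adjusted p = 0.067). In shAPT1 the value was -0.58 ± 0.23 (adjusted p = 0.078), which did not pass, and the alternatives ranged from an adjusted p of 1.007e-12 without a filter on low counts to 0.24 in DESeq2. It passed where only shAPT1 and control were fitted (adjusted p = 0.00041) and without APT1wt replicate 1 (adjusted p = 0.00017). It also passed with the length and GC correction (adjusted p = 0.024) and with a replicate block (adjusted p = 0.023). In the remaining alternatives it did not pass. The direct comparison gave 0.32 ± 0.23 (95% interval -0.13 to 0.76). Without APT1wt replicate 1 it was 0.83 and passed (adjusted p = 4.2e-05), and without replicate 2 or 3 it was 0.12 or 0.11. The annotation places SLC7A11-AS1 on the opposite strand over this gene, and whether counting used strand is not given in the sources used here.

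The light chains SLC7A6 (y+LAT2, an exchanger of arginine for glutamine) and SLC7A7 (y+LAT1) did not pass in any comparison. SLC7A6 was at 51.5 to 62.2 TPM in shAPT1, 51.6 to 58.2 TPM in APT1wt and 41.8 to 62.3 TPM in control, and its log2 fold change was -0.11 ± 0.08 in shAPT1 and -0.05 ± 0.08 in APT1wt. SLC7A7 was at most 1.53 TPM in any library. The summed TPM of the light chains that pair with 4F2hc was 1.45 ± 0.12 times that of SLC3A2 in shAPT1, 1.47 ± 0.095 times in APT1wt and 1.34 ± 0.048 times in control cells, with overlapping libraries.

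SLC7A6OS overlaps SLC7A6 on chromosome 16, on the minus strand at 68284503 to 68310946 against the plus strand at 68264516 to 68301823. It was at 23.7, 23.1 and 24.2 TPM in shAPT1, 20.1, 22.1 and 19.2 TPM in APT1wt and 15.5, 17.2 and 14.8 TPM in control. The groups did not overlap, in the order shAPT1, APT1wt, control. It was higher by 0.62 ± 0.07 in shAPT1 (adjusted p = 2.7e-05) and by 0.43 ± 0.07 in APT1wt (adjusted p = 0.00063). Its neighbour on the other strand, SLC7A6, gave the values above and did not pass, and reads in their overlap could be split in error.

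**Figure D3:**
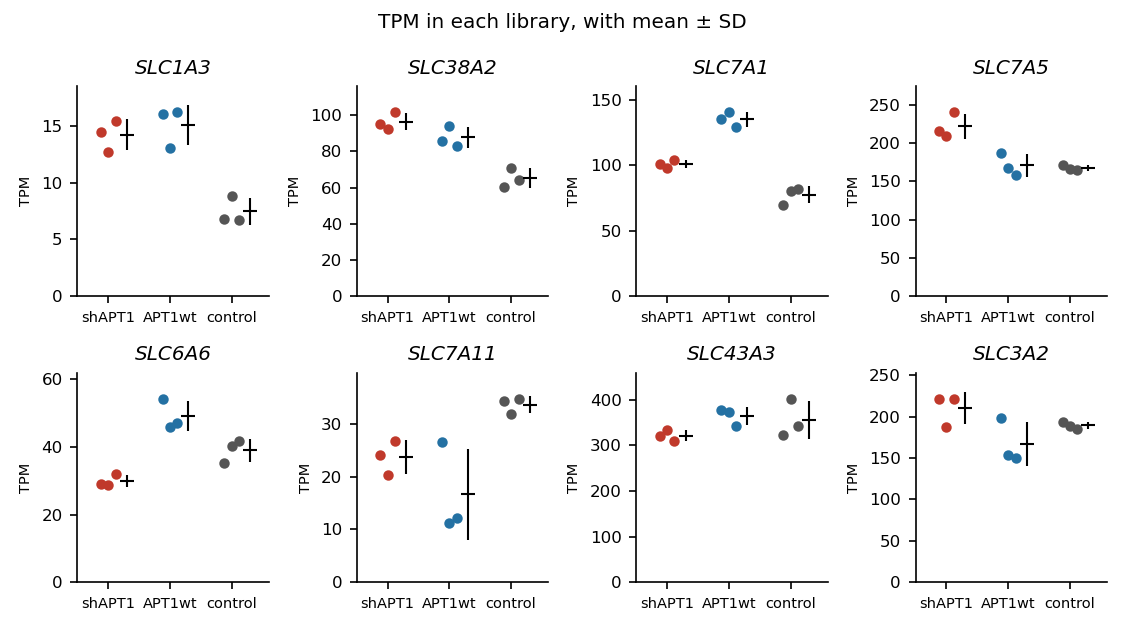
TPM in each library for 8 members, with the group mean ± SD beside the points; panels start at 0 and the groups run shAPT1, APT1wt, control. SLC6A6 is at 28.6 to 31.9 TPM in shAPT1 and 45.8 to 54.2 TPM in APT1wt, on either side of 35.2 to 41.7 TPM in control.

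Among the carriers of cationic amino acids, SLC7A1 (chromosome 13, 29509410 to 29595688, minus strand), which encodes the main arginine and lysine carrier CAT1, rose in both altered lines. It stood at 101, 97.9 and 104 TPM in shAPT1, 135, 141 and 130 TPM in APT1wt and 70.0, 80.2 and 82.0 TPM in control. The 3 groups did not overlap, and APT1wt was highest. The log2 fold change was 0.32 ± 0.06 in shAPT1 (adjusted p = 0.00091), 0.82 ± 0.06 in APT1wt (adjusted p = 2.6e-07) and -0.50 ± 0.06 in shAPT1 against APT1wt (adjusted p = 2.5e-05).

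The genes around SLC7A1 changed as well. Of its 95 nearest tested genes, which span 12.7 Mb on the side of the chromosome's end and reach 9.94 Mb on the other, 80 were higher and 0 lower in APT1wt, with a median log2 fold change of 0.82 (quartiles 0.64 and 1.01). In shAPT1, 66 were higher and 1 lower, with a median of 0.42 (quartiles 0.29 and 0.55). SLC7A1 itself lay above 49.5% of these neighbours in APT1wt and above 30.5% in shAPT1. After the median deviation of the neighbours was removed from each library, SLC7A1 had a log2 fold change of 0.0038 in APT1wt (adjusted p = 0.98) and -0.12 in shAPT1 (adjusted p = 0.19), so that its calls ended and the sign turned in shAPT1. SLC25A15, the mitochondrial ornithine carrier, which is no member, was also higher, by 0.27 ± 0.08 in shAPT1 and 0.79 ± 0.08 in APT1wt. The other cationic carrier tested, SLC7A2 (CAT2), was at 11.2 to 15.7 TPM over all libraries and did not pass in any comparison.

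**Figure D4:**
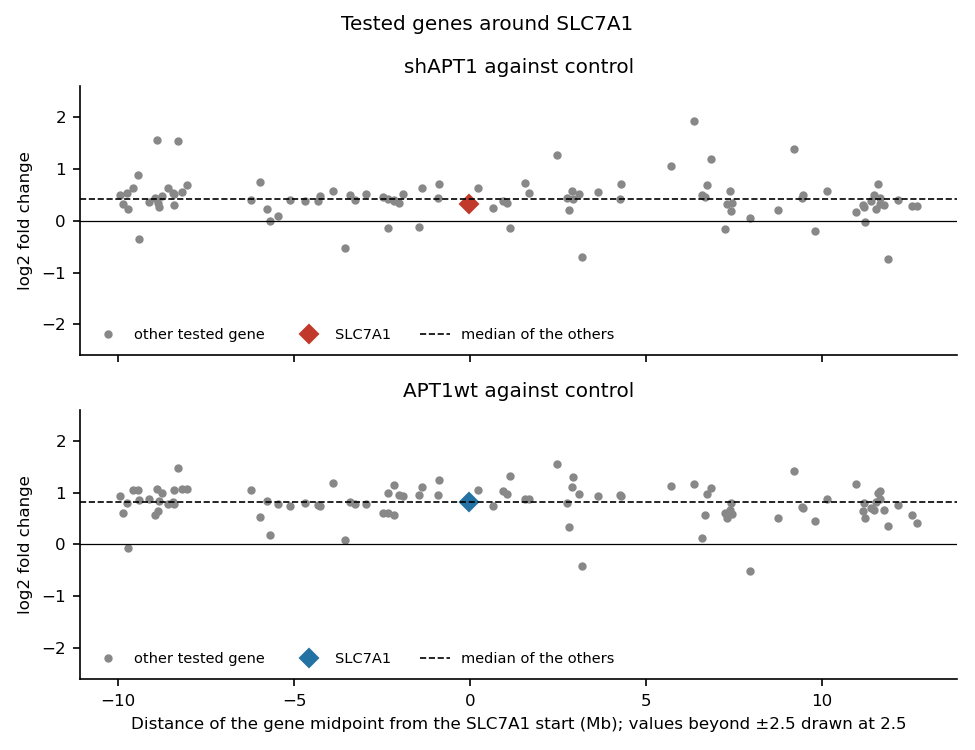
Log2 fold change of tested genes around SLC7A1 by distance from its start in megabases, in shAPT1 against control (top) and APT1wt against control (bottom); the coloured diamond is SLC7A1 and the dashed line the median of the others. SLC7A1 lies close to the medians of 0.42 and 0.82.

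Glutamate carriers came next. SLC1A3 (chromosome 5, 36606355 to 36688334, plus strand), which encodes the glutamate and aspartate carrier EAAT1, had the largest fold change of the tested members in both comparisons with control. It stood at 14.5, 12.7 and 15.4 TPM in shAPT1, 16.0, 13.1 and 16.2 TPM in APT1wt and 6.79, 8.84 and 6.72 TPM in control. Both altered lines lay above all control libraries and overlapped each other. SLC1A3 was higher by 1.20 ± 0.12 in shAPT1 (adjusted p = 6.3e-06) and by 1.08 ± 0.12 in APT1wt (adjusted p = 1.7e-05). Annotated coding transcripts held only 23.5% ± 3.3 of its TPM in shAPT1, 19.6% ± 6.3 in APT1wt and 19.2% ± 4.8 in control (SD, n = 3 each). A 1096-base transcript with a retained intron was at 4.47, 4.64 and 1.90 TPM on group means of shAPT1, APT1wt and control, and a 583-base one at 3.27, 3.69 and 2.33 TPM, so that the longer was the most abundant in both altered lines and the shorter in control. SLC1A6 (EAAT4), at most 0.467 TPM in any library, did not pass, and SLC1A1, SLC1A2 and SLC1A7 were not tested.

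Both exchangers of alanine, serine and cysteine were tested. SLC1A4 encodes ASCT1, which carries serine and alanine, and stood at 3.68, 5.55 and 4.92 TPM in shAPT1, 3.57, 2.93 and 4.40 TPM in APT1wt and 3.49, 3.69 and 2.56 TPM in control. The lowest shAPT1 library was just under the highest control library. SLC1A4 was higher in shAPT1 by 0.88 ± 0.13 (adjusted p = 0.00030) against control and by 0.59 ± 0.13 (adjusted p = 0.0039) against APT1wt. Its 4561-base coding transcript was at 4.28 ± 0.67, 2.55 ± 0.14 and 2.01 ± 0.16 TPM in shAPT1, APT1wt and control, and the 1217-base coding transcript was at 0 TPM in all shAPT1 libraries. With the transcript length offset the change against control was 0.50 (adjusted p = 0.14) and that against APT1wt 0.30 (adjusted p = 0.37), and neither passed. SLC1A5, which encodes the glutamine exchanger ASCT2, was at 141, 155 and 189 TPM in shAPT1, 172, 162 and 144 TPM in APT1wt and 162, 161 and 150 TPM in control. The 3 groups overlapped, and the log2 fold changes were -0.04 ± 0.09 in shAPT1 (95% interval -0.21 to 0.13) and -0.01 ± 0.09 in APT1wt (95% interval -0.17 to 0.16).

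In family 38, the sodium-coupled carriers of glutamine and other neutral amino acids, 8 of 11 members were tested. SLC38A2, which encodes SNAT2, stood at 94.9, 92.6 and 102 TPM in shAPT1, 85.9, 94.0 and 83.1 TPM in APT1wt and 60.5, 71.0 and 64.2 TPM in control. All 6 libraries of the altered lines lay above all control libraries. SLC38A2 was higher by 0.50 ± 0.06 in shAPT1 (adjusted p = 2.4e-05) and by 0.42 ± 0.06 in APT1wt (adjusted p = 0.00011), and the direct comparison gave 0.08 ± 0.06 (95% interval -0.03 to 0.19). SLC38A1, which encodes SNAT1 and lies next to it on chromosome 12, at 46183063 to 46270017 against 46358189 to 46372867, gave -0.03 ± 0.07 in shAPT1 and -0.03 ± 0.07 in APT1wt at 65.0 to 88.7 TPM over all libraries. The 100 tested genes nearest to SLC38A2 had medians of -0.03 in both comparisons.

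SLC38A4 (SNAT4), from the same stretch of chromosome 12 at 46764761 to 46832408, was a low transcript. It was at 1.52, 2.09 and 2.08 TPM in shAPT1, 1.05, 0.480 and 0.839 TPM in APT1wt and 1.38, 1.22 and 1.18 TPM in control. The groups did not overlap, with shAPT1 highest and APT1wt lowest. The difference between shAPT1 and APT1wt was 1.12 ± 0.23 (adjusted p = 0.0029), whereas 0.48 ± 0.22 in shAPT1 and -0.64 ± 0.24 in APT1wt against control did not pass. Without APT1wt replicate 1 SLC38A4 was at -0.87 in APT1wt against control and passed (adjusted p = 0.035). SLC38A5 (SNAT5), on chromosome X, was lower still at 12 to 15 reads per library in shAPT1, 3 to 9 in APT1wt and 6 to 9 in control. Its difference of 1.33 ± 0.42 between shAPT1 and APT1wt (adjusted p = 0.031) was lost in 8 of 20 alternatives, at adjusted p of up to 0.23. Among these were DESeq2 and the fits without shAPT1 replicate 1 or 3 or APT1wt replicate 1 or 2. Its 100 nearest tested genes had a median of -0.51 in APT1wt against control, with 1 higher and 66 lower. In shAPT1 against APT1wt their median was 0.19, with 29 higher and 2 lower, and SLC38A5 lay above 99% of them. With the neighbours' median removed the difference was 1.13 and the call was lost (adjusted p = 0.073).

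SLC38A9, the lysosomal arginine sensor that signals to mTORC1, was at 22.5, 18.4 and 17.9 TPM in shAPT1, 15.2, 14.1 and 13.5 TPM in APT1wt and 15.5, 13.1 and 15.4 TPM in control. The shAPT1 libraries were the 3 highest. It was higher in shAPT1 by 0.39 ± 0.11 against control (adjusted p = 0.020) and by 0.38 ± 0.11 against APT1wt (adjusted p = 0.021), and with the transcript length offset neither passed (adjusted p = 0.11 and 0.080). The call against control was also lost without control replicate 2 or 3 and with the neighbours' median removed (0.30, adjusted p = 0.055), and the call against APT1wt without APT1wt replicate 3. SLC38A6, SLC38A7 and SLC38A10 did not pass in any comparison.

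SLC36A4, a proton-independent carrier of proline and tryptophan, was higher in shAPT1. It stood at 37.4, 30.4 and 29.8 TPM in shAPT1, 22.9, 27.8 and 25.3 TPM in APT1wt and 23.1, 24.5 and 26.8 TPM in control, and the shAPT1 libraries were the 3 highest. The log2 fold change was 0.43 ± 0.08 against control (adjusted p = 0.00094) and 0.37 ± 0.08 against APT1wt (adjusted p = 0.0029). With the transcript length offset they were 0.32 (adjusted p = 0.052) and 0.28 (adjusted p = 0.083). SLC36A1, the lysosomal proton-coupled carrier of small amino acids, was at 9.77 to 14.1 TPM over all libraries and gave 0.12 ± 0.08 in shAPT1 and -0.02 ± 0.09 in APT1wt, neither of which passed.

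All 3 members of family 43 were tested. SLC43A2 encodes LAT4, a facilitative carrier of branched-chain amino acids, and was at 5.79, 4.05 and 5.59 TPM in shAPT1, 3.77, 4.27 and 3.59 TPM in APT1wt and 1.89, 2.16 and 2.76 TPM in control. Both altered lines lay above all control libraries. It was higher by 0.67 ± 0.20 in shAPT1 and by 0.67 ± 0.20 in APT1wt (adjusted p = 0.025 for each). Without shAPT1 replicate 1 or control replicate 1 or 2 the first call was lost, and without APT1wt replicate 2 or 3 or control replicate 1 or 2 the second was, at adjusted p of up to 0.098.

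SLC43A1, which encodes LAT3, a carrier of the same substrates, was at 9.51, 10.8 and 13.5 TPM in shAPT1, 12.8, 15.1 and 15.1 TPM in APT1wt and 10.6, 10.5 and 11.1 TPM in control. It was higher in APT1wt by 0.43 ± 0.13 (adjusted p = 0.026), and shAPT1 gave -0.03 ± 0.13 against control and -0.47 ± 0.13 against APT1wt (adjusted p = 0.016). The call in APT1wt against control was lost without any control library, without APT1wt replicate 2 or 3, and with the transcript length offset (adjusted p = 0.055). The call in the direct comparison was lost without APT1wt replicate 2 or 3 and with that offset (adjusted p of up to 0.070). SLC43A3, on the same stretch of chromosome 11, was lower in shAPT1 by -0.31 ± 0.06 against control (adjusted p = 0.00097) and by -0.29 ± 0.06 against APT1wt (adjusted p = 0.0020). On the TPM scale its levels were 320, 334 and 310 in shAPT1, 378, 374 and 343 in APT1wt and 323, 402 and 342 in control, so that shAPT1 and control overlapped. With the transcript length offset the difference from control was -0.21 (adjusted p = 0.091).

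In family 6, SLC6A6 moved in opposite directions in the altered lines. The gene (chromosome 3, 14402576 to 14489349, plus strand) encodes the taurine carrier TauT, and SLC6A6 stood at 29.2, 28.6 and 31.9 TPM in shAPT1, 54.2, 45.8 and 47.1 TPM in APT1wt and 35.2, 40.2 and 41.7 TPM in control. The 3 groups did not overlap, with shAPT1 lowest and APT1wt highest. The log2 fold change was -0.49 ± 0.06 in shAPT1 (adjusted p = 6.6e-05) and 0.27 ± 0.06 in APT1wt (adjusted p = 0.0057), and shAPT1 against APT1wt directly gave -0.76 ± 0.06 (adjusted p = 1.2e-06). The 100 nearest tested genes had medians of 0.05 in both comparisons with control. Its main transcript, a 6528-base coding form, was at 17.7, 33.5 and 25.9 TPM on group means of shAPT1, APT1wt and control. The order of the groups in SLC6A6 was that of LYPLA1, and it was not particular to SLC6A6. Among other members, the means of SLC43A3 ran the same way, at 321, 356 and 365 TPM in shAPT1, control and APT1wt. Those of SLC38A4 ran in reverse, at 1.90, 1.26 and 0.789 TPM. A relation to the level of APT1 was not tested.

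SLC6A9, which encodes the glycine carrier GlyT1, was at 3.08, 3.91 and 5.0 TPM in shAPT1, 2.16, 2.11 and 2.07 TPM in APT1wt and 2.93, 2.27 and 2.51 TPM in control. The shAPT1 libraries were the 3 highest in TPM, while in reads scaled by library size, which the test uses, shAPT1 and control overlapped. It was higher in shAPT1 by 0.85 ± 0.28 against control (adjusted p = 0.041) and by 0.97 ± 0.28 against APT1wt (adjusted p = 0.021). The 3130-base coding transcript was at 2.48, 1.03 and 0.773 TPM on group means of shAPT1, APT1wt and control. Its call against control was lost in 8 of 21 alternative settings, among them without control replicate 2 or 3 and without shAPT1 replicate 2 or 3, at adjusted p of up to 0.16. The call against APT1wt was lost without shAPT1 or APT1wt replicate 2 or 3 (adjusted p of up to 0.094).

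SLC6A8 (chromosome X, 153688099 to 153696593, plus strand) encodes the creatine carrier and was at 2.23, 1.70 and 3.84 TPM in shAPT1, 2.61, 2.09 and 2.00 TPM in APT1wt and 3.69, 2.84 and 3.55 TPM in control. All APT1wt libraries lay below all control libraries, and shAPT1 overlapped both. It was lower in APT1wt by -0.65 ± 0.17 (adjusted p = 0.011) and gave -0.23 ± 0.16 in shAPT1. Its 94 nearest tested genes had a median of -0.40 in APT1wt, with 56 lower and 0 higher, and with the neighbours' median removed SLC6A8 gave -0.26 (adjusted p = 0.33). The call was also lost with the transcript length offset and without APT1wt replicate 3 or control replicate 3. The neutral and cationic carrier SLC6A14 did not pass, at 9 to 27 reads per library over all groups.

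Other genes of amino acid metabolism were read from lists chosen with earlier results of these data known. Of 16 genes of the ATF4 and amino acid response, 1 was higher and 1 lower in shAPT1, and 1 was higher and 4 lower in APT1wt. These are 12.5% and 31.2%, against 24.4% and 23.4% of all tested genes called in either direction. VLDLR was higher in shAPT1 by 0.49 ± 0.12 and CEBPB, a partner of ATF4, lower by -0.51 ± 0.10. In APT1wt ATF3 was lower by -0.99 ± 0.22, PPP1R15A, which reverses the block on translation, by -0.44 ± 0.12 and VLDLR by -0.36 ± 0.12, and DDIT4, an inhibitor of mTORC1, was higher by 0.73 ± 0.22. ATF4 itself gave 0.16 ± 0.11 in shAPT1 and 0.21 ± 0.11 in APT1wt, and neither passed.

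The libraries of APT1wt were not alike in these genes, as they were not in SLC7A11. The ATF4 target CHAC1, which degrades glutathione, stood at a log2 ratio to the control mean of 0.97 in APT1wt replicate 1 and of -1.17 and -1.61 in replicates 2 and 3. ASNS, which makes asparagine, was at 0.15 in replicate 1 and at -0.53 and -0.52 in the other 2. Of the 16 genes of the list, 10 were highest in APT1wt replicate 1 among the APT1wt libraries, and 13 were highest in control replicate 1 among the control libraries. Over all tested genes the shares highest in these libraries were 36.6% and 38%. The part of these libraries in the changes of SLC7A11 was not tested beyond the fits without each of them.

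**Figure D5:**
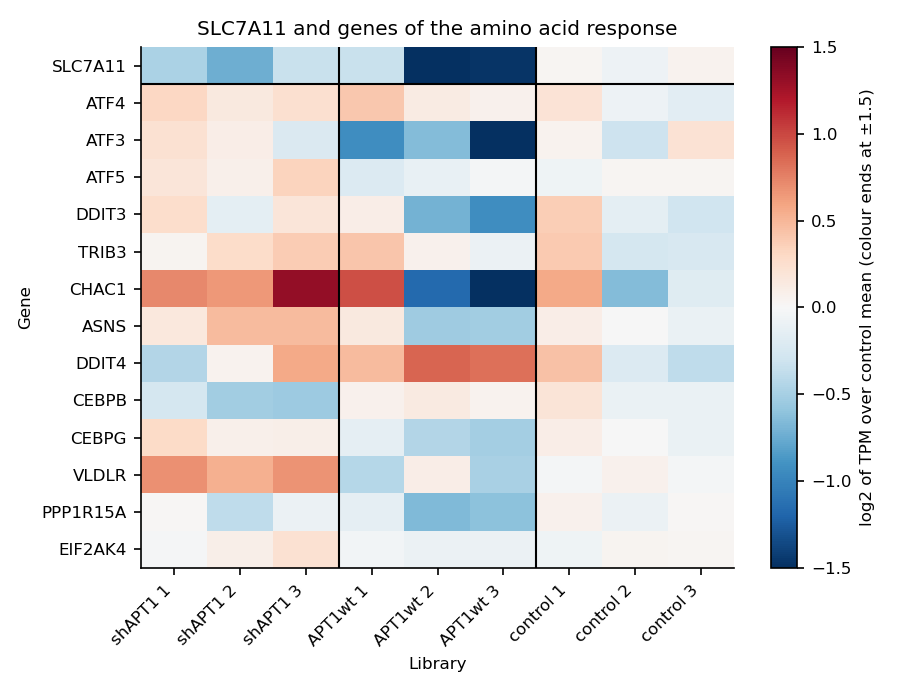
Log2 ratio of TPM to the control mean in each library for SLC7A11 (top row) and the genes of the amino acid response list with a group mean of at least 3 TPM. APT1wt replicate 1 differs from the other APT1wt libraries in SLC7A11, at -0.34 against -1.58 and -1.47, and in CHAC1, ASNS and DDIT3.

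Of 14 genes that make serine, one-carbon units, proline and arginine, 1 was higher and 1 lower in shAPT1, and 3 were higher and 1 lower in APT1wt. The shares called were 14.3% and 28.6%, against 24.4% and 23.4% of all tested genes. PHGDH, the first enzyme of serine synthesis, was at 8.06, 19.0 and 22.4 TPM in shAPT1, 27.5, 21.8 and 22.1 TPM in APT1wt and 7.61, 7.77 and 6.86 TPM in control, and its log2 fold change was 1.14 ± 0.26 and 1.76 ± 0.25. The first shAPT1 library lay close to control. In APT1wt the arginine-making enzyme ASS1 was higher by 1.13 ± 0.19 and the folate enzyme MTHFD1L by 0.52 ± 0.08, and PSPH, the last enzyme of serine synthesis, was lower by -0.42 ± 0.09. ALDH18A1, which starts proline synthesis, was lower in shAPT1 by -0.36 ± 0.06.

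Of 13 genes of glutamine, glutamate and branched-chain metabolism, 3 were higher and 3 lower in shAPT1, and 2 were higher and 1 lower in APT1wt. The shares called were 46.2% and 23.1%, against 24.4% and 23.4% of all tested genes. GLUL, which makes glutamine, was lower by -0.49 ± 0.07 in shAPT1 and by -0.36 ± 0.07 in APT1wt. GLUD1 was lower in shAPT1 by -0.37 ± 0.06 and DBT higher by 0.36 ± 0.08, and BCAT1, which transfers the amino group of branched-chain amino acids, was higher in APT1wt by 0.36 ± 0.09. Of 9 genes of glutathione synthesis, 2 were higher and 1 lower in shAPT1, and 1 was higher and 3 lower in APT1wt, or 33.3% and 44.4% called. GGT1, which breaks down extracellular glutathione, was higher by 0.48 ± 0.13 in shAPT1 and 1.10 ± 0.13 in APT1wt, and the reductase GSR was lower by -0.46 ± 0.08 and -0.27 ± 0.08. CTH, which makes cysteine, was higher in shAPT1 by 1.11 ± 0.29, and GCLC and GGCT were lower in APT1wt by -0.27 ± 0.08 and -0.27 ± 0.06.

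Of 33 genes that sense amino acids for mTORC1, 1 was higher and 1 lower in shAPT1, and 1 was higher and 4 lower in APT1wt, or 6.06% and 15.2% called. The leucine sensor homologue SESN3 was higher in shAPT1 by 1.94 ± 0.32 at 0.466 to 0.621 TPM in its libraries, LAMTOR5 was lower by -0.21 ± 0.07, and in APT1wt the Rag GTPase RRAGD was lower by -0.63 ± 0.09, FNIP2, a partner of folliculin, by -0.40 ± 0.09 and the GATOR2 subunit MIOS by -0.36 ± 0.08, and the GATOR1 subunit DEPDC5 was higher by 0.49 ± 0.13. Of 20 cytosolic aminoacyl-tRNA synthetases, which load amino acids on tRNA, 4 were higher and 0 lower in each comparison with control, or 20% called. NARS, for asparagine, was higher by 0.61 ± 0.09 in shAPT1 and 0.42 ± 0.09 in APT1wt, and DARS, for aspartate, by 0.28 ± 0.06 and 0.32 ± 0.06. Single libraries stood apart here too, as 19 of the 20 were highest in APT1wt replicate 1 among the APT1wt libraries and 15 in control replicate 1 among the control libraries. The shares over all tested genes were 36.6% and 38%. Of 13 carriers of other families, 1 was higher and 0 lower in shAPT1, and 1 was higher and 2 lower in APT1wt, or 7.69% and 23.1% called. In APT1wt SLC25A38 gave -0.28 ± 0.09 and SLC25A13 -0.22 ± 0.07. The shares called in these lists lay on either side of the background of 24.4% in shAPT1 and 23.4% in APT1wt, and no test of the lists was made.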

How the data were processed

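The authors sequenced RNA of 9 samples of the MDA-MB-231 line, 3 per group. Per the submitters' processing notes, FastQC, Salmon and DESeq2 were used with build GRCh38.p10, and no versions were named. Per the file headers, the deposited files are Salmon's and hold estimated counts and TPM per transcript, as the authors made them. The authors also deposited a table of signal per gene, and its scaling is not given in the sources used here.

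Estimated counts were summed per gene, rounded to whole numbers and fitted over all genes in all 9 libraries with edgeR 4.0.16 (filterByExpr, TMM, quasi-likelihood test) in R 4.3.3, with Benjamini-Hochberg adjustment over 15233 genes at 0.05. TPM was summed per gene for levels. Values with ± are log2 fold change ± SE or mean ± SD. Intervals are 95% intervals of the log2 fold change. They were taken from the SE with the normal distribution, which makes them somewhat narrow at 3 libraries per group. With 3 against 3 libraries the smallest exact permutation p is 0.1, so no such test was used. Positions and transcript types came from GENCODE 29 (GRCh38) and promoter sequences from RefSeq. The rule named every member called in any comparison, and in any case SLC3A1, SLC3A2, SLC7A5, SLC7A11, SLC1A5 and SLC38A2, and up to 4 called genes of each related list with the largest changes in each comparison with control. A few further list genes, whose library values are given, were picked with those values known, and some genes are not reported here. The members and lists were chosen with earlier results of these data known.

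As alternatives, DESeq2 1.42.0, limma-voom (limma 3.58.1), RLE scaling, library totals alone, no filter and a stricter filter of 20 reads in 3 libraries, a transcript length offset, the deposited table (log2 with a pseudocount of 1), a length and GC correction, fits of only the groups compared, a replicate block, and each library left out in turn were tried. The removal of the neighbouring genes' median was chosen after seeing the data. On simulated data for shAPT1 against control with 15233 genes, 50 genes of each size were changed, and the test recovered 36% at a change of 1.25 times, 60% at 1.5 times, 72% at 2 times and 94% at 4 times, and 8 of its 139 calls were false. The simulation changed genes in shAPT1 only and gave 139 calls, against 3719 in the data. The adjustment for many genes was thus stricter there, and the shares recovered need not hold for the reported test. Depth was 12381931 to 18667383 estimated reads per library.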

Additional observations from a re-analysis of the deposited data

Results flagged for a closer look

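SLC6A6, which encodes the taurine carrier, stands out because its effect differed in direction between the knockdown and the overexpressing line. Its log2 fold change was -0.49 in shAPT1 and 0.27 in APT1wt, each against the same control libraries. Set directly against APT1wt, shAPT1 gave -0.76 ± 0.06 (adjusted p = 1.2e-06, edgeR's quasi-likelihood test), and all 3 shAPT1 libraries lay below all 3 APT1wt libraries. The flag was given only to members with opposite calls against control and a passing direct comparison. The direct value comes from the same fit and is no separate support. Over the 21 alternatives the direct difference ranged from -0.80 to -0.70 and kept its call in each.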

How the results depend on the processing

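Counts of called members kept within 1.5 times of those reported under RLE scaling, library totals alone, DESeq2, limma-voom and the stricter filter. With the transcript length offset and with the deposited table, alike, 6 members were higher and 1 lower in shAPT1, 1 was lower in APT1wt, and 3 were higher in shAPT1 against APT1wt. Calls over all tested genes fell as well. In shAPT1 they were 1196 higher and 1111 lower with the offset and 1197 and 1129 with the deposited table, against 1951 and 1768. In APT1wt the lower calls were 1089 and 1072, against 1772. In the direct comparison the higher calls were 1202 and 1154, against 1941. Without a filter 4 were lower in shAPT1, with the length and GC correction 4 were lower in shAPT1 and 4 in APT1wt, and in fits of only the groups compared 4 were lower in APT1wt. With the length and GC correction, 1791 genes were higher and 2600 lower in shAPT1, against 1951 and 1768 without it. In APT1wt that correction gave 2414 and 2342, against 1796 and 1772, and fits of only the groups compared gave 2329 and 2324. Without a filter 2088 of 34479 genes were higher and 1803 lower in shAPT1. With the neighbours' median removed 0 members were lower in APT1wt, and SLC7A1 in shAPT1 turned to -0.12. Over all tested genes that step left 1245 higher and 1096 lower in APT1wt, against 1796 and 1772. Leaving out each library in turn gave 7 to 10 higher and 2 to 3 lower members in shAPT1, 5 to 7 higher and 0 to 4 lower in APT1wt, and 4 to 8 higher and 3 to 5 lower in shAPT1 against APT1wt. Over all tested genes these fits gave 1427 to 2112 higher and 1189 to 1984 lower in shAPT1. The ranges were 1166 to 2434 and 1132 to 2391 in APT1wt, and 1317 to 2057 and 1256 to 2047 in the direct comparison. The cause of these shifts was not tested.

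SLC1A3, SLC38A2, SLC6A6 and SLC7A6OS kept their calls in both comparisons with control in all 21 alternatives, as did SLC7A5 in shAPT1 against control. Low members are limited by depth: SLC38A5 had 3 to 15 reads per library.

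Over all tested genes, deviations from the group mean correlated at -0.051 to 0.10 between samples with the same replicate number. Between samples with different numbers the range was -0.11 to 0.071. In the ATF4 list and the tRNA synthetases, replicate 1 was highest for most genes in both APT1wt and control, though not in shAPT1. Of the 29 tested members, 15 were highest in replicate 1 in APT1wt, 15 in control and 10 in shAPT1. These are 51.7%, 51.7% and 34.5%, against 36.6%, 38% and 40.4% of all tested genes. The labels do not say that the number marks a shared culture, so it was not taken as a pairing. With a replicate block 10 members were higher and 3 lower in shAPT1, 7 higher and 2 lower in APT1wt, and 7 higher and 4 lower in the direct comparison, and SLC7A11 passed in shAPT1 at -0.59 (adjusted p = 0.023). The block changed no other call of a named member.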

Other observations

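Among members left out by the filter on low counts, a fit without that filter called SLC7A9, the light chain of the renal cystine carrier, lower in shAPT1 than in control (log2 fold change -2.91 ± 0.97, adjusted p = 0.028), at 1, 0 and 1 reads in shAPT1 and 4, 8 and 3 reads in control. It also called SLC6A12, the betaine and GABA carrier, higher in shAPT1 than in APT1wt (4.84 ± 1.56, adjusted p = 0.021), at 2, 3 and 6 reads in shAPT1 and 0 reads in each APT1wt library. Both fold changes depend on the prior count of the fit and are no bounds.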
